A study of Mus musculus with 12 samples.

Results

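The comparison set the follicular phase of the mouse estrous cycle, proestrus with estrus, against the luteal phase, metestrus with diestrus, in the oviduct. Its members are all 12 arrays of the study, 6 from proestrus and estrus and 6 from metestrus and diestrus, with 3 arrays per stage. All RNA came from oviducts of ICR mice, an outbred stock, aged 6 weeks, and no group carried a mutation or a treatment according to the labels. Labelled RNA was hybridised to 1-colour Illumina bead arrays of 25697 probes, and the raw intensities with their detection p-values were used. The labels do not say whether the 3 arrays of a stage came from separate animals, pools or repeated hybridisations, so the p-values measure the spread between these arrays, which may be technical. The question was which genes differ between the phases in the same way in both stages of each phase.

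In the rodent cycle, growing follicles secrete rising estradiol through proestrus, the gonadotropin surge follows, and ovulation brings the animal into estrus. New corpora lutea then secrete progesterone in metestrus and diestrus. The oviduct epithelium and stroma carry receptors for both hormones, and the tube supplies the fluid in which sperm are stored and the egg is fertilised. The phase names stand for the stages as labelled, since no hormone level was analysed here.

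All values are log2 intensities after background correction and quantile normalization, and a difference is the mean of proestrus and estrus minus the mean of metestrus and diestrus, with its standard error. A gene was taken to have changed between phases when its adjusted p in limma was under 0.05 over the 10144 genes tested. It is called shared when, in addition, each of the 4 stage pairs across the phases had the same sign and an unadjusted p under 0.05. The 4 pairs share arrays, so they are not 4 independent tests. The 13 general epithelial markers of the tissue check were detected on all 12 arrays. Ovgp1, the secreted oviduct glycoprotein, lay at 14.80, 15.03 and 15.50 (lowest, median and highest) on the proestrus and estrus arrays and at 14.82, 15.02 and 15.78 on the metestrus and diestrus arrays.

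The replicate 1 arrays of all stages stood apart from the others before any stage was compared. Their median raw intensity was 139 to 156 against 99.3 to 105 on replicates 2 and 3, and the first principal component, with 42.8% of the variance, separated these sets. Once the mean difference between the sets was removed, the first component held 41.8% of the variance and split the phases, with the 6 proestrus and estrus arrays between 11.5 and 19.9 and the 6 metestrus and diestrus arrays between -24.2 and -9.4. Each set holds all 4 stages, so a fit with the replicate number as a block takes the set difference out of the error.

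**Figure D1:**
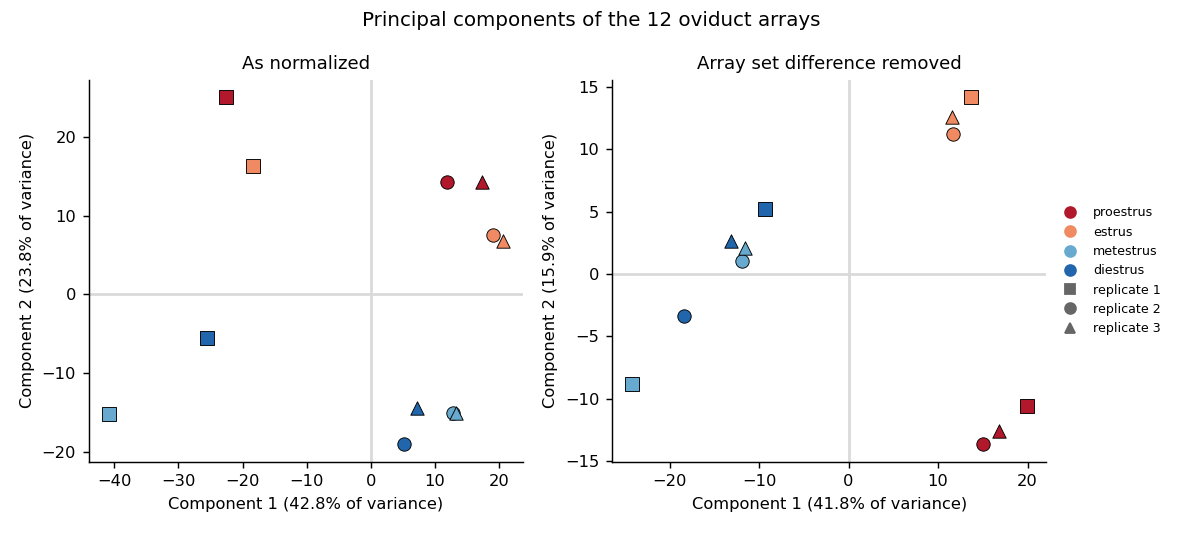
First and second principal components of the 12 arrays over 10144 genes, before (left) and after (right) removal of the mean difference between replicate 1 and replicates 2 and 3; colours are stages and symbols are replicates. On the left the squares of replicate 1 lie apart on component 1 (42.8% of the variance), and on the right component 1 (41.8%) has all proestrus and estrus arrays at 11.5 or above and all metestrus and diestrus arrays at -9.4 or below.

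Between the phases, 904 genes (8.91% of those tested) changed, 450 (4.44%) higher and 454 (4.48%) lower in proestrus and estrus. Of these, 453 genes (4.47% of those tested, 50.1% of those that changed) were shared by both stages of each phase, 230 (2.27%) of them higher and 223 (2.2%) lower. With the replicate block, 2386 genes (23.5%) changed, 1094 higher and 1292 lower, and 939 (9.26%) were shared, 441 higher and 498 lower, including all 453. The counts were far smaller where the array sets were quantile normalized apart and no block was used, at 26 genes higher and 7 lower, and on the authors' deposited values without a block, at 63 higher and 20 lower. Leaving out proestrus also lowered them, to 168 genes higher and 59 lower.

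Shared higher genes had a median change of 1.77-fold, and 71 of 230 passed 2-fold. The 223 shared lower genes had a median of 1.496-fold and 24 passed 2-fold, and the difference between the directions was not tested. In 384 of the 453 shared genes all 6 arrays of a phase lay beyond all 6 of the other, and over all genes tested that share was 6.35% (3.02% higher and 3.33% lower). The shared genes were chosen on the values of these same arrays, so this count describes them and is no separate support. Proestrus lay farther than estrus from the mean of metestrus and diestrus in 353 shared genes (77.9%), compared with 60.2% of all genes tested. Of the 453 shared genes, 23 also passed the test between estrus and proestrus or between diestrus and metestrus. With the replicate block, 68 of the 939 genes shared in that fit did. Over all 10144 genes tested, 106 passed either test, 1.02% the first and 0.069% the second.

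**Figure D2:**
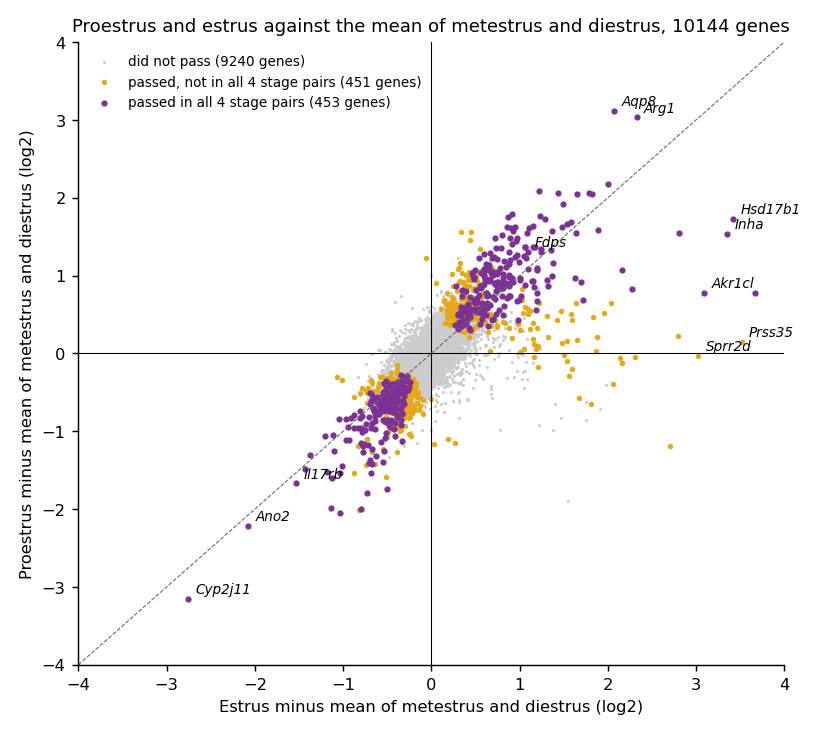
Each point is a gene, with its estrus mean (x axis) and its proestrus mean (y axis) minus the mean of metestrus and diestrus, in log2 units; the dashed line marks equal differences. The 453 shared genes (purple) lie in the quadrants where both stages differ the same way, with Arg1 and Aqp8 at the upper right and Cyp2j11 and Ano2 at the lower left, whereas Prss35 and Sprr2d lie near 0 on the proestrus axis.

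Arg1 and Aqp8 ranked first among the shared genes that rose, by the smallest of the 4 stage-pair differences. Arg1, the arginase that splits arginine into ornithine and urea, lay at 8.84, 9.40 and 9.92 on the proestrus and estrus arrays (lowest, median and highest, here and below) and at 6.61, 6.64 and 6.79 on the metestrus and diestrus arrays. The difference was 2.68 ± 0.10, adjusted p = 3.7e-08, or 6.42-fold, and no array of one phase reached the other. Aqp8, a water channel of epithelial cells, lay at 8.60, 9.28 and 9.92 in proestrus and estrus and at 6.62, 6.69 and 6.82 in metestrus and diestrus, a difference of 2.59 ± 0.09, adjusted p = 2.8e-08. The 6 metestrus and diestrus arrays spanned 0.18 for Arg1 and 0.21 for Aqp8, while estrus minus proestrus was -0.70 for Arg1 and -1.04 for Aqp8.

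Genes of cornified cells and secreted proteases came among the next in rank. Cdsn encodes corneodesmosin, an adhesion protein of cornified cells, and lay at 7.45, 7.85 and 8.16 in proestrus and estrus against 5.601, 5.94 and 6.07 in metestrus and diestrus (1.93 ± 0.12, adjusted p = 2.1e-06). The cornified envelope genes Sprr2g and Sprr2f differed by 1.74 ± 0.18 and 2.18 ± 0.21. Sprr2 genes are near-identical copies, so a probe of one may read another. Prss29, a serine protease known from mouse uterine glands as an implantation protease, lay at 8.78, 9.26 and 9.52 against 6.50, 7.41 and 7.71 in metestrus and diestrus (1.92 ± 0.20, adjusted p = 1.1e-04). The glandular kallikreins Klk1b21 and Klk1b27, again close copies, differed by 1.59 ± 0.14 and 1.55 ± 0.12, with no overlap of arrays in either.

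The remaining leading rises encoded a vessel peptide, a nerve transporter and several enzymes. Edn2, the precursor of the vasoconstrictor endothelin 2, lay at 8.43, 8.73 and 9.17 in proestrus and estrus and at 6.70, 6.98 and 7.15 in metestrus and diestrus (1.85 ± 0.11, adjusted p = 2.5e-06). Slc6a2, which takes up noradrenaline into nerve endings, lay at 11.12, 11.24 and 11.35 in proestrus and estrus and at 9.18, 9.58 and 9.94 in metestrus and diestrus (1.64 ± 0.08, adjusted p = 5.2e-07). The proestrus and estrus arrays of Slc6a2 spanned 0.23, and the gap to the highest array of the other phase was 1.18. Chst8, a sulfotransferase of hormone glycans, differed by 1.60 ± 0.11, Alpl, the tissue-nonspecific alkaline phosphatase, by 1.71 ± 0.16, and Car12, a membrane carbonic anhydrase, by 1.75 ± 0.21. Inhba, Hsd17b1 and Cyp17a1 also belong here and are described with the ovarian markers.

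Several of the shared falls were of genes not detected in proestrus and estrus. Among them was Cyp2j11, a member of the cytochrome P450 2J family of fatty acid oxygenases. It lay at 4.52, 5.12 and 5.62 in proestrus and estrus, where it was detected on no array, and at 7.73, 8.05 and 8.35 in metestrus and diestrus. Set against the lowest detectable level of each array in place of the undetected values, it was at least 5.52-fold lower in proestrus and estrus (fitted difference -2.95 ± 0.19, adjusted p = 3.9e-06). Ano2, a calcium-activated chloride channel, was likewise detected on none of the 6 proestrus and estrus arrays (4.47, 4.55 and 4.74) and lay at 6.26, 6.63 and 7.30 in metestrus and diestrus, at least 2.19-fold lower. The same bound was at least 1.54-fold for Gldc, glycine decarboxylase, at least 1.21-fold for Rln1, relaxin, and at least 1.16-fold for Slc51a, a subunit of an organic solute and steroid transporter. These 5 were at background in both proestrus and estrus, so their fitted differences have no order among themselves.

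The other named shared falls were detected on some arrays of both phases. Il17rb, a receptor subunit for interleukin 25, lay at 7.49, 7.71 and 8.02 in proestrus and estrus and at 9.25, 9.35 and 9.49 in metestrus and diestrus (-1.60 ± 0.10, adjusted p = 3.2e-06), with a gap of 1.23 between the phases. Plekhs1 lay at 9.48, 10.01 and 10.31 and at 11.01, 11.23 and 11.47 in the same order of phases (-1.28 ± 0.11, adjusted p = 3.5e-05). Col9a2, a chain of collagen IX, differed by -1.36 ± 0.12, and Tmem132c by -1.23 ± 0.08. Lgi1, a secreted protein known from neurons, was detected on 0 of 3 proestrus arrays and on all 3 estrus arrays, and Slc5a11, a sodium-coupled inositol transporter, on 0 of 3 proestrus arrays and 1 of 3 estrus arrays. Their fitted differences, -1.54 ± 0.15 and -1.35 ± 0.17, thus lie largely against background in proestrus. Insl6, a peptide of the relaxin and insulin family, differed by -1.18 ± 0.20. Cldn1, of tight junctions, differed by -1.04 ± 0.26, Cdhr5, a cadherin of microvilli, by -1.02 ± 0.22, and Fxyd4, a regulator of the sodium pump, by -0.94 ± 0.19. Pdgfrl, a relative of the platelet-derived growth factor receptors, differed by -0.91 ± 0.11. Cldn1 overlapped between phases, with a highest proestrus or estrus array of 9.32 and a lowest metestrus or diestrus array of 9.23, and Cdhr5 and Fxyd4 did not.

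**Figure D3:**
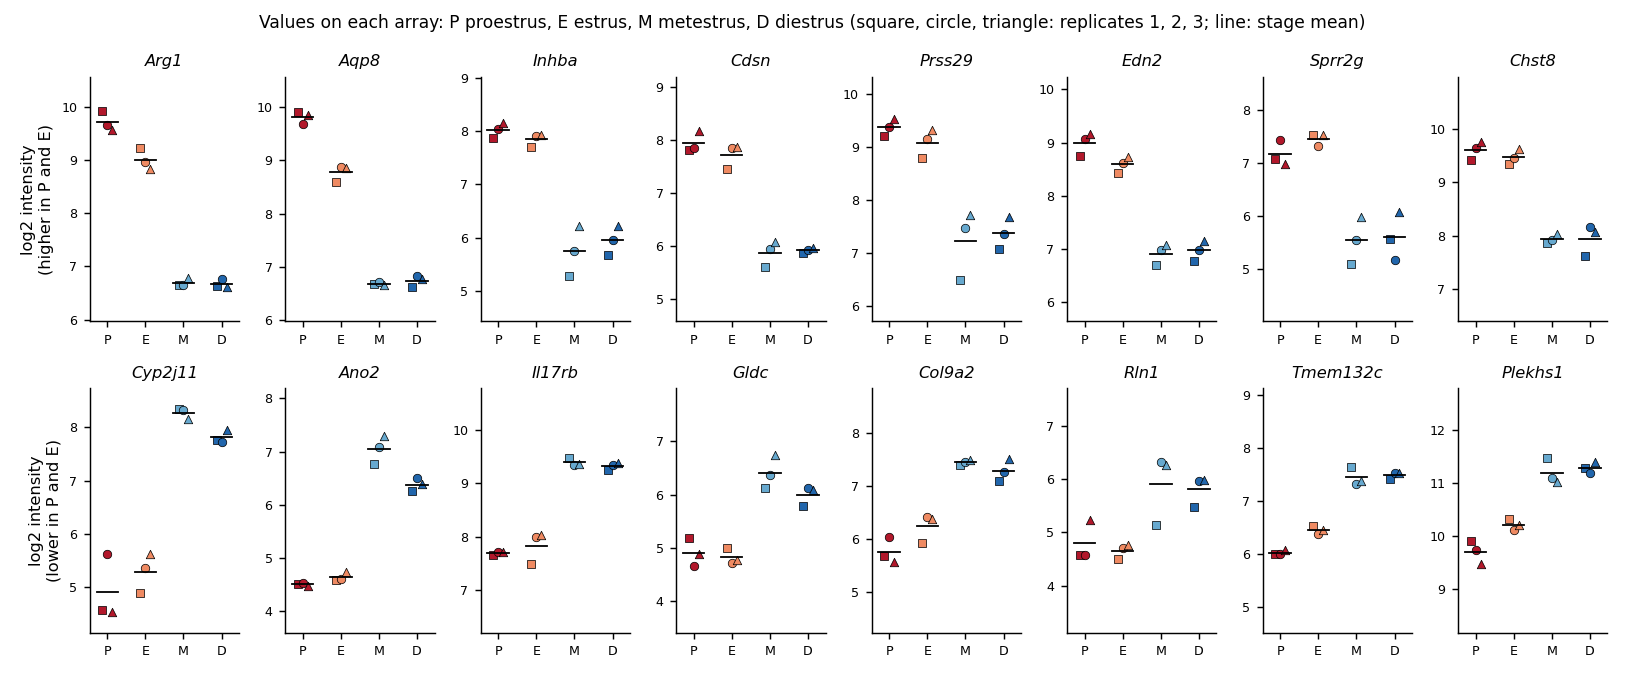
Log2 intensity on each array for the 8 shared genes higher (upper row) and the 8 lower (lower row) in proestrus and estrus with the largest smallest stage-pair difference; all panels have the same span on the y axis. Proestrus and estrus points (red and orange) lie on one side of the metestrus and diestrus points (blue) in each panel except Rln1, where the highest proestrus array (5.24) passes the lowest metestrus array (5.14).

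Genes taken here to be induced by estrogen in the female tract made up the first list. Of the 26 tested, 13 were higher and 1 lower in proestrus and estrus (15 and 2 with the replicate block), 10 and 1 of them shared, with a median difference of 0.55 against -0.02 over all genes. Of the 26, 1 was detected on no metestrus or diestrus array. Beside this and every later list stand the shares over all genes tested, 4.44% higher and 4.48% lower. Over all 10144 genes, 4752 had a positive difference. Padi2, a peptidylarginine deiminase, lay at 7.61, 8.23 and 8.85 in proestrus and estrus against 6.41, 6.51 and 6.93 in metestrus and diestrus (1.65 ± 0.11, adjusted p = 5.7e-06). Lrat, which esterifies retinol for storage, differed by 1.35 ± 0.09, and Aqp5, a water channel of secretory glands, by 1.31 ± 0.09. Aqp8, above, is the fourth named member. All 4 were highest at proestrus, and estrus minus proestrus was -0.86 for Padi2 and -0.88 for Lrat. The 1 member that fell was Wnt7a, an epithelial Wnt ligand named after its value was seen (-0.88 ± 0.09, adjusted p = 1.3e-04).

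Of the receptors, Esr1, the main estrogen receptor of the tract, lay at 10.88, 11.18 and 11.34 in proestrus and estrus against 11.01, 11.20 and 11.75 in metestrus and diestrus, a difference of -0.13 ± 0.14, adjusted p = 0.68, which did not pass. Pgr, the progesterone receptor and itself an estrogen target, passed between phases (0.63 ± 0.10, adjusted p = 0.0026) but was not shared, with 8.58 in proestrus, 7.80 in estrus, 7.77 in metestrus and 7.35 in diestrus. Its estrus mean differed by 0.03 from its metestrus mean. Ovgp1 did not pass (-0.08 ± 0.19, adjusted p = 0.86).

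Cholesterol biosynthesis had the largest share of members that changed among the 20 process lists. Of 18 genes tested, 13 were higher in proestrus and estrus and none lower (15 and 0 with the replicate block), 8 were shared, and all 18 had a positive difference, with a median of 0.54. Fdps, the synthase of farnesyl diphosphate, lay at 11.20, 11.39 and 11.65 in proestrus and estrus and at 10.03, 10.21 and 10.31 in metestrus and diestrus, 2.29-fold higher (1.198 ± 0.09, adjusted p = 1.0e-05) with no overlap. Msmo1, a sterol methyl oxidase, lay at 9.13, 9.40 and 9.94 and Cyp51, lanosterol demethylase, at 8.24, 8.58 and 8.87 in proestrus and estrus, against 8.21, 8.58 and 9.25 for Msmo1 and 7.37, 7.70 and 8.35 for Cyp51 in metestrus and diestrus. Their differences were 0.87 ± 0.18 and 0.79 ± 0.15, and the phases overlapped in both. Lss, which closes the sterol rings, differed by 0.70 ± 0.10, adjusted p = 8.0e-04. The other shared members, Nsdhl (0.84 ± 0.18), Hmgcs1 (0.50 ± 0.11), Stard4 (0.57 ± 0.13) and Insig1 (0.54 ± 0.15), were taken for their place on the list after their values were seen. Nsdhl is a sterol dehydrogenase, Hmgcs1 makes the precursor of mevalonate, Stard4 carries cholesterol, and Insig1 holds the sterol sensor complex in the endoplasmic reticulum. The summed intensity of the 18 genes was 16290 to 17800 on the proestrus and estrus arrays and 10840 to 12470 on the metestrus and diestrus arrays.

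**Figure D4:**
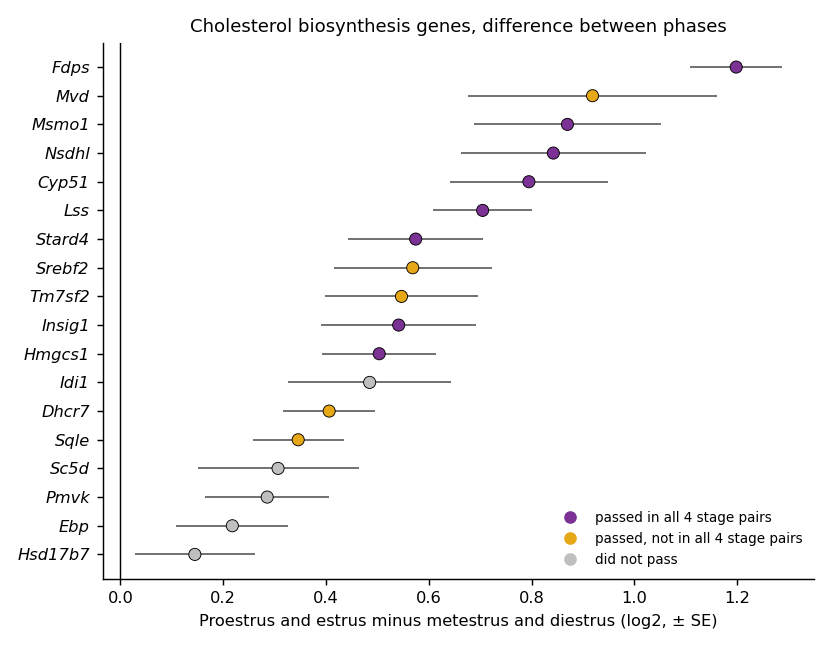
Difference between proestrus and estrus and the luteal stages (log2, x axis) with its standard error for the 18 cholesterol biosynthesis genes tested; purple points are shared, yellow points passed between phases only, grey points did not pass. All 18 points lie right of 0, and Fdps stands highest at 1.198.

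Sterol genes are known to be switched on by sterol regulatory element binding proteins together with the factor NF-Y, which binds the CCAAT box. Of the 6 shared sterol genes with a promoter in the table, the 3 with the most CCAAT boxes are shown. The stretches run 250 bases before to 50 after the start, from RefSeq on build GRCm38.p6, printed 5′ to 3′ on the gene's strand, with capitals on CCAAT boxes on either strand (CCAAT or ATTGG) and on the sterol regulatory element core CACCCCAC on either strand. Hmgcs1 is at chr13:119690101-119690400 on the plus strand, Nsdhl at chrX:72918271-72918570 on the plus strand and Msmo1 at chr8:64733529-64733828 on the minus strand.
Hmgcs1: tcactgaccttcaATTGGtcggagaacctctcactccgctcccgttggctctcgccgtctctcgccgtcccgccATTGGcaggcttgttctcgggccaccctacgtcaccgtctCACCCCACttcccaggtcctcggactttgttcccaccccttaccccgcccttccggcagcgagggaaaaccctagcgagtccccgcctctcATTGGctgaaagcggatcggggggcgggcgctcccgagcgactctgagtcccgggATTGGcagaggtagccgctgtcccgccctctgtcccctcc
Nsdhl: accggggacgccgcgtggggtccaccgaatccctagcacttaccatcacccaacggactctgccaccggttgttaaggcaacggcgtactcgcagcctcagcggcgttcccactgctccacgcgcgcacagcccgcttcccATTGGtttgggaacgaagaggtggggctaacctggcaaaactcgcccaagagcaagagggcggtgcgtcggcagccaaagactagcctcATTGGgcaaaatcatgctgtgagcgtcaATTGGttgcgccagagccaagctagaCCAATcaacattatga
Msmo1: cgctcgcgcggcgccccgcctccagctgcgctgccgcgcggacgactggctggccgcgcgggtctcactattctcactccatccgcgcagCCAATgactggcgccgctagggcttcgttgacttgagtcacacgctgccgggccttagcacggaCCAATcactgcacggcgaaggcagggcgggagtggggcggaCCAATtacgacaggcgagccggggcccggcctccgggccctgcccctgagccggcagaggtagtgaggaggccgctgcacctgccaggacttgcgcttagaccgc
Hmgcs1 holds 4 CCAAT boxes and 1 sterol element core, Nsdhl 4 CCAAT boxes and Msmo1 3. The others, Lss, Cyp51 and Insig1, hold 1 CCAAT box each and no sterol element core.

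A CCAAT box stood in 14 of the 15 cholesterol genes with a promoter in the table (93.3%), and in all 6 of the shared ones that had one. Over the 8216 tested genes with a promoter the share was 38.9%, and it was 43.8% of 178 shared higher genes and 35.3% of 173 shared lower genes. The sterol element core was found in 1 of the 15 against 2.93% of tested genes. The short estrogen response motif AGGTCA was found in 18% of shared higher, 12.1% of shared lower and 12.4% of all tested promoters, counting both strands. The full estrogen response element GGTCANNNTGACC, which overlaps the short motif, was in none of these 8216 windows, nor was the steroid response element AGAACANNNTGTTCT. The last 3 motifs searched were the E-box CACGTG (9.55% of shared higher, 10.4% of shared lower and 9.90% of tested genes), the E2F site TTTGGCGC (2.81%, 0% and 0.864%) and the stress element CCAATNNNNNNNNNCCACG, which contains a CCAAT box (0%, 0.578% and 0.146%). A match says only that these letters stand in the window.

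In the list of steroid receptors and enzymes, 11 of 21 tested were higher and 1 lower in proestrus and estrus, with 5 shared and a median of 0.39. Of the 21, 2 were detected on no metestrus or diestrus array and entered the test only through proestrus and estrus arrays. Akr1cl, an aldo-keto reductase, lay at 9.29, 10.45 and 11.70 in proestrus and estrus against 8.33, 8.55 and 8.76 in metestrus and diestrus (1.93 ± 0.09, adjusted p = 3.2e-07). Its estrus mean stood 2.32 above its proestrus mean, the reverse of Aqp8. Hsd17b2, which oxidises estradiol to estrone, lay at 6.06, 6.42 and 6.53 in proestrus and estrus against 5.09, 5.38 and 5.72 in metestrus and diestrus (0.97 ± 0.12, adjusted p = 5.2e-04). It was detected on 1 of 3 metestrus and 1 of 3 diestrus arrays, so its values there lie near background. Hsd17b1, whose enzyme reduces estrone to estradiol, lay at 7.82, 9.004 and 9.94 against 5.66, 6.38 and 7.07 in metestrus and diestrus (2.58 ± 0.20, adjusted p = 1.1e-05). Its means were 8.12 in proestrus, 9.81 in estrus, 6.14 in metestrus and 6.64 in diestrus. The 1 gene that fell was Gper1, a membrane estrogen receptor named after its value was seen (-0.48 ± 0.12, adjusted p = 0.026).

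Of the 16 ovarian markers tested, 12 were higher and none lower in proestrus and estrus, 7 were shared, and the median was 0.73. Their summed intensity was 2538 to 2741 in proestrus, 6344 to 6722 in estrus, 1866 to 1930 in metestrus and 1539 to 1688 in diestrus. Inha, the inhibin alpha subunit, lay at 7.998, 9.18 and 10.19 in proestrus and estrus against 5.91, 6.82 and 7.27 in metestrus and diestrus (2.45 ± 0.14, adjusted p = 1.4e-06). Inhba, the activin and inhibin beta A subunit, lay at 7.70, 7.92 and 8.17 against 5.28, 5.85 and 6.22 in metestrus and diestrus (2.09 ± 0.15, adjusted p = 9.7e-06), with estrus minus proestrus at -0.18. Cyp17a1, which makes androgens, lay at 6.72, 7.23 and 7.48 against 5.22, 5.67 and 6.30 in metestrus and diestrus (1.47 ± 0.19, adjusted p = 5.3e-04). Of the 21 ovarian markers with a probe, 5 were detected on no array: Amh, Nr5a1, Nr0b1, Adcyap1 and Inhbe. Only 8 of the 21 were detected on all 12 arrays. Of the 16 tested, 2 were detected on no metestrus or diestrus array and entered the test only through proestrus and estrus arrays. The count of 12 and the sums thus rest in part on background values in metestrus and diestrus.

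Oocyte markers were highest at estrus. Their summed intensity was 703 to 883 in proestrus, 2192 to 2687 in estrus, 800 to 982 in metestrus and 1152 to 1571 in diestrus. Of 14 tested, Nlrp14 and Oosp1, a member of the NLR protein family and an oocyte-secreted protein, passed between phases (0.55 ± 0.14 and 1.02 ± 0.25) and neither was shared. Both had their highest mean at estrus, and without the estrus arrays their differences turned to -0.57 and -0.12. Oosp1 was detected on 0 of 3 proestrus, 0 of 3 metestrus and 2 of 3 diestrus arrays, so its sign there is read near background. With the replicate block 8 of 14 were higher and 2 lower. Of the 24 oocyte markers with a probe, 8 were detected on no array, Zp1, Zp2 and Nobox among them, and 4 on all 12 arrays. Among those tested, Figla was detected on 3 arrays, Tcl1 on 4 and Bmp15 and Sohlh1 on 5 each. The oocyte sums thus hold background values on some arrays. The part of ovarian or oocyte RNA in the differences of Inha, Inhba, Hsd17b1, Cyp17a1 and the other steroid genes was not tested. In a whole tissue, more cells of a type and more RNA per cell cannot be told apart.

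Of 24 ion and water transport genes tested, 7 were higher and 4 lower in proestrus and estrus (8 and 7 with the replicate block), 5 and 2 of them shared, with a median of 0.07. Beside Aqp8, Aqp5 and Car12, Slc26a4, the anion exchanger pendrin, lay at 6.79, 7.46 and 7.79 in proestrus and estrus against 5.54, 6.10 and 6.68 in metestrus and diestrus (1.30 ± 0.18, adjusted p = 8.0e-04). The 4 that fell, named after their values were seen, were 3 further water channels, Aqp1 (-0.68 ± 0.11), Aqp4 (-0.38 ± 0.10) and Aqp11 (-0.62 ± 0.12), and Atp1b1, a subunit of the sodium pump (-0.45 ± 0.09). Aqp11 and Atp1b1 were shared. Aquaporin genes thus passed in both directions within one tissue.

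Of 28 cell cycle genes tested, 7 were higher and none lower in proestrus and estrus (17 and 0 with the replicate block), 3 were shared, and 27 had a positive difference, with a median of 0.34. Prc1, which bundles the spindle midzone, lay at 9.39, 9.71 and 9.87 in proestrus and estrus against 8.87, 8.97 and 9.19 in metestrus and diestrus (0.65 ± 0.09, adjusted p = 6.2e-04). Birc5, survivin, differed by 0.93 ± 0.15, adjusted p = 0.0023, Mcm5, a subunit of the replication helicase, by 0.47 ± 0.09, adjusted p = 0.0056, and Bub1b, a spindle checkpoint kinase, by 0.69 ± 0.14 without being shared. Bub1b was detected on 1 of 3 metestrus and 1 of 3 diestrus arrays, so its values there lie near background. Birc5, Prc1, Bub1b and Mcm5 had their highest means at estrus, at 7.61 for Birc5 and 9.80 for Prc1, when the oocyte and ovarian sums were highest too, and the part of those cells was not tested.

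All 27 oxidative phosphorylation genes tested had a positive difference, with a median of 0.32, where 4752 of all 10144 genes did. The signs come from the same 12 arrays and are not 27 separate observations. Only Sdhb (0.44 ± 0.11, adjusted p = 0.034) and Cox5a (0.55 ± 0.15, adjusted p = 0.043) passed, 7.41% against 8.91% of all genes, and neither was shared. With the replicate block 12 passed, all higher. Of 20 glycolysis and hypoxia genes, 4 were higher and 1 lower, with 3 and 1 shared. Gapdh (0.39 ± 0.08), Ldha (0.41 ± 0.09) and Pkm (0.38 ± 0.08), all glycolytic enzymes, rose, and Ndrg1, a hypoxia-responsive gene, fell (-0.60 ± 0.11). Gapdh lay at 13.80, 13.92 and 13.96 in proestrus and estrus and at 13.43, 13.51 and 13.60 in metestrus and diestrus, so a gene often used as a loading reference differed 1.31-fold here.

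Genes known to respond to progesterone or glucocorticoid passed in the other direction. Of 13 tested, 4 were lower and none higher in proestrus and estrus, 3 of them shared, with a median of -0.25. Tsc22d3, the glucocorticoid-induced leucine zipper, lay at 11.17, 11.24 and 11.27 in proestrus and estrus against 11.90, 12.03 and 12.14 in metestrus and diestrus (-0.79 ± 0.08, adjusted p = 8.3e-05). Its 6 proestrus and estrus arrays spanned 0.10, and the gap to the other phase was 0.63. Gata2, a transcription factor acting with the progesterone receptor in the uterus, differed by -0.62 ± 0.09, adjusted p = 0.0015, and Ihh, the hedgehog ligand of uterine epithelium, by -0.60 ± 0.13, adjusted p = 0.016. Errfi1, a brake on the epidermal growth factor receptor, differed by -0.51 ± 0.12 and was not shared. With the replicate block 6 of the 13 were lower.

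All 9 MHC class II antigen presentation genes tested had a negative difference, with a median of -0.40, and 3 passed (6 with the replicate block). Cd74, the invariant chain, lay at 10.96, 11.06 and 11.12 in proestrus and estrus and at 11.46, 11.66 and 11.76 in metestrus and diestrus (-0.60 ± 0.08, adjusted p = 5.9e-04), and H2-Ab1 at 10.53, 10.66 and 10.78 and 10.76, 11.25 and 11.45 in the same order (-0.57 ± 0.10, adjusted p = 0.005). Both were shared. H2-Eb1 passed with a larger difference, -1.20 ± 0.25, but was not shared, with 7.54 in proestrus, 8.21 in estrus, 8.88 in metestrus and 9.28 in diestrus. H2 genes have near-identical relatives and vary within an outbred stock, so their readings are uncertain. In limma 0 of the 12 macrophage and 0 of the 9 lymphocyte markers tested passed, where 1 of each had an unadjusted p under 0.05, and 1 lymphocyte marker passed with the block. The summed macrophage signal was 9663 to 13310 in proestrus and estrus against 10750 to 13430 in metestrus and diestrus.

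Of 5 eosinophil and mast cell genes tested, 2 were lower in proestrus and estrus and both were shared. Of the other 3, which did not pass, 2 had a positive difference, and with the replicate block 1 of the 5 was higher and 3 were lower. Cpa3, mast cell carboxypeptidase, lay at 5.33, 5.81 and 6.65 in proestrus and estrus against 6.52, 6.91 and 7.45 in metestrus and diestrus (-1.05 ± 0.17, adjusted p = 0.0024), and Cma1, chymase, differed by -0.50 ± 0.12, adjusted p = 0.027. Cma1 was detected on 1 of 3 proestrus and 1 of 3 estrus arrays, and Cpa3 on 1 of 3 proestrus arrays, so their values there lie near background. The 3 probes for Cpa3 gave -1.05, -0.70 and -0.24, so the size depends on the probe. None of the 12 genes of this list with a probe was detected on all 12 arrays and 5 were detected on none.

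Of 15 circadian genes tested, Dbp (-0.52 ± 0.09, adjusted p = 0.0043) and Per2 (-0.34 ± 0.09, adjusted p = 0.036), both clock-driven transcription regulators, were lower in proestrus and estrus and neither was shared, and 7 were lower with the replicate block. The labels give no hour of sampling, so hour and phase cannot be told apart. Of 24 motile cilia genes, 21 had a negative difference, with a median of -0.11, where 4752 of all 10144 had a positive one. These signs come from the same 12 arrays and are not 24 separate observations. Of the 24, 3 were lower and none higher, against 4.48% lower and 4.44% higher over all genes tested. The 3 were Mcidas (-0.60 ± 0.13, adjusted p = 0.012), which was shared, Ccno (-0.39 ± 0.10) and Rfx2 (-0.28 ± 0.08), all regulators of multiciliated cell formation. In 32 alternative settings, Rfx2 did not pass in 20, Ccno in 14 and Mcidas in 5. With the replicate block 5 of the 24 were lower. Ift88, a part of ciliary transport, differed by -0.24 ± 0.08 and passed in limma only with that block (adjusted p = 0.027, against 0.11 without it).

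Of 19 secretory cell genes tested, 3 were higher and 2 lower in proestrus and estrus (4 and 5 with the replicate block), 7 of the 19 had a positive difference, and the median was -0.08. Among the 3 that rose, Krt7, a keratin of simple epithelia, differed by 0.94 ± 0.10, adjusted p = 9.9e-05. Among defence genes Lcn2, the iron-binding lipocalin, lay at 12.62, 12.87 and 13.16 in proestrus and estrus against 11.16, 11.77 and 11.91 in metestrus and diestrus (1.18 ± 0.11, adjusted p = 7.9e-05). Cxcl15, a chemokine of mucosal epithelium, differed by 1.27 ± 0.14, adjusted p = 1.3e-04, and C2, a complement component, by -0.57 ± 0.08, adjusted p = 0.0014. Of 25 innate defence genes 4 were higher and 3 lower (5 and 7 with the block), and of 22 interferon response genes 1 was higher and 2 lower, none of those shared, with 7 lower under the replicate block. The fibulins went opposite ways: Fbln2 lay at 11.29, 11.72 and 12.22 in proestrus and estrus against 10.12, 10.46 and 10.61 in metestrus and diestrus (1.36 ± 0.12, adjusted p = 3.7e-05), and Fbln1 at 11.50, 11.88 and 12.26 against 12.54, 12.74 and 12.85 in metestrus and diestrus (-0.86 ± 0.09, adjusted p = 9.4e-05). Both encode fibulins, secreted proteins of elastic fibres and basement membranes, and both were shared without overlap. Of 33 matrix genes 5 were higher and 1 lower (9 and 7 with the block).

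The last process lists changed in both directions or not at all. Of 17 retinoid genes, 3 were higher and 1 lower (5 and 2 with the block), with Lrat and Crabp2, a retinoic acid carrier (0.90 ± 0.17), shared, and Stra6, a retinol uptake receptor, lower (-0.59 ± 0.11) without being shared. Of 17 fatty acid genes, 3 were higher (6 with the block), Elovl6 (0.89 ± 0.14), Me1 (0.64 ± 0.13) and Srebf1 (0.63 ± 0.14), and 2 lower, the desaturases Fads1 (-0.38 ± 0.09) and Fads2 (-0.42 ± 0.11), the last named after its value was seen. Of 35 genes of the endoplasmic reticulum, 2 were higher and 3 lower (7 and 5 with the block), with Ssr4 (0.54 ± 0.12) and Ero1b (-0.49 ± 0.11) shared in opposite directions. Among 18 immediate early genes, 2 were higher and 2 lower (3 and 4 with the block), and Ccn1 (0.68 ± 0.13) and Ccn2 (-0.54 ± 0.09), relatives of one matricellular family, differed in opposite directions. None of 24 translation and amino acid genes passed in limma, where 4 had an unadjusted p under 0.05, and 3 passed with the block.

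**Figure D5:**
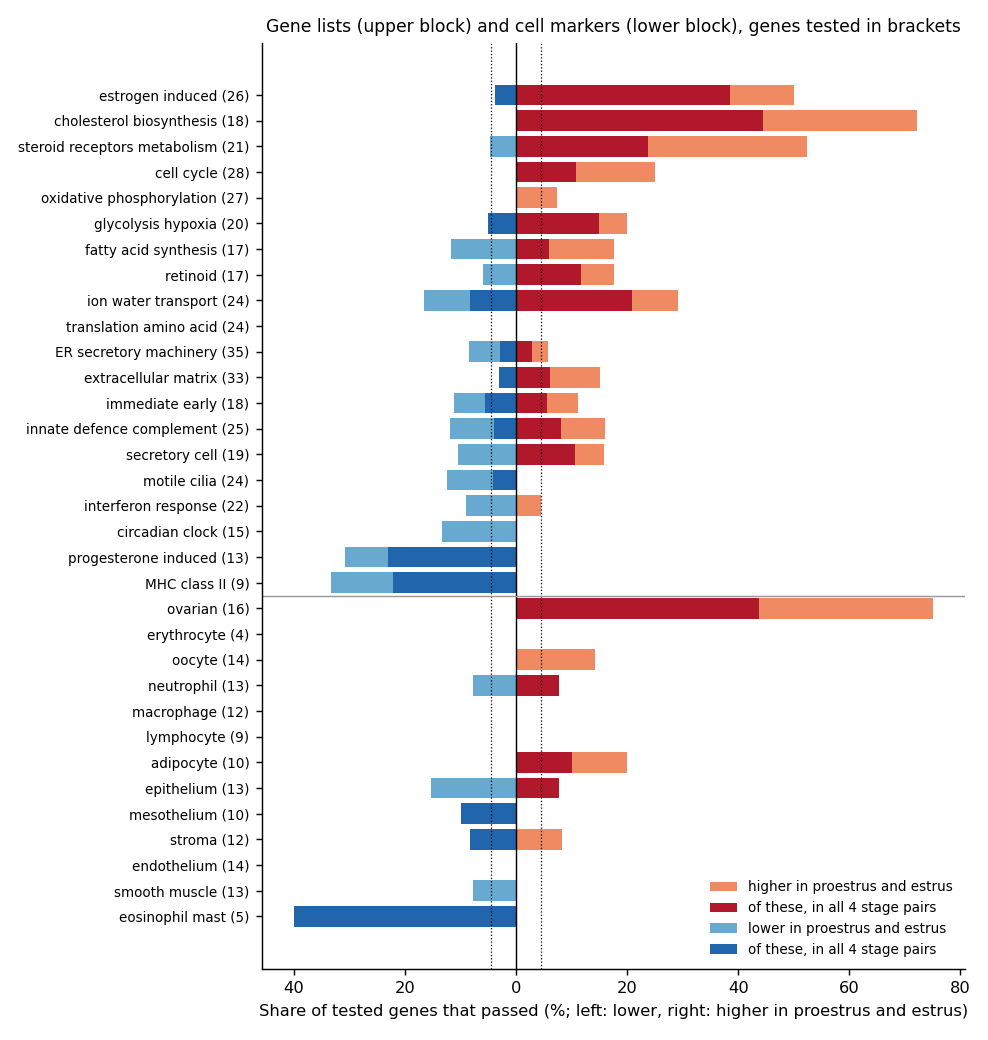
Share of the tested genes of each list (number in brackets) that were higher (right) or lower (left) in proestrus and estrus, with the darker part shared by both stages; dotted lines mark the shares over all genes, 4.44% higher and 4.48% lower. Ovarian markers (12 of 16) and cholesterol biosynthesis (13 of 18) reach farthest right, and the 5 mast cell and eosinophil genes and the 9 class II genes reach farthest left.

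Of the remaining marker lists, up to 3 members passed in each. In limma 0 of 14 endothelial markers passed, where 4 had an unadjusted p under 0.05 (3 of them lower), and 6 passed with the block. Likewise 0 of 4 erythrocyte markers passed, where 2 had an unadjusted p under 0.05 and 2 passed with the block. Of 13 smooth muscle markers only Myh11 passed (-0.32 ± 0.08, adjusted p = 0.032), of 10 mesothelial ones only Gpm6a (-0.41 ± 0.11, adjusted p = 0.035), and of 12 stromal ones Col1a1 rose (0.53 ± 0.13) and Fbln1 fell. With the block, 1 smooth muscle marker was higher and 4 lower, 3 mesothelial ones were lower, and 1 stromal one was higher and 3 lower. Of 10 adipocyte markers Pparg (0.83 ± 0.13, adjusted p = 0.002) and Cidea (0.50 ± 0.13) were higher, and of 13 neutrophil markers Lcn2 was higher and Mmp9 lower (-0.43 ± 0.11), with 4 higher and 1 lower under the block. The summed signal of neutrophil markers was 39960 to 59450 in proestrus and estrus against 48570 to 64220 in metestrus and diestrus. Of the 13 epithelial markers Elf3 rose (0.54 ± 0.14) and Cldn4 (-0.73 ± 0.14) and Cldn3 (-0.30 ± 0.08) fell, with 2 higher and 3 lower under the block.

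Changed but not shared were 451 genes, 49.9% of the 904, among which the stage farthest from the other 3 was proestrus in 251, estrus in 79, metestrus in 71 and diestrus in 50. This count was 287 without proestrus replicate 2, 293 without estrus replicate 2 and 293 without estrus replicate 3. The largest rises of this kind were highest at estrus. Prss35, a serine protease-like gene, had means of 6.98 in proestrus, 10.35 in estrus, 6.91 in metestrus and 6.76 in diestrus, and Sprr2d of 4.60 in proestrus, 7.65 in estrus, 4.57 in metestrus and 4.68 in diestrus. Sprr2d was detected on the 3 estrus arrays and on no other, so its other 3 means are background values. Esr2, the second estrogen receptor, was detected on 1 of 3 proestrus arrays, on all 3 estrus arrays and on no metestrus or diestrus array. Its means were 5.44 at proestrus, which lies near background, and 6.88 at estrus. Defb19, a defensin, was detected on the 3 estrus arrays and on no other, with an estrus mean of 7.93 and background values in the other stages. The ovarian and oocyte sums above were also highest at estrus.

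Among the falls of this kind, Serpina1b and Serpina1c, near-identical alpha-1-antitrypsin copies, were lowest at proestrus. Serpina1b had means of 7.97 in proestrus, 9.17 in estrus, 10.36 in metestrus and 9.61 in diestrus. H2-K1, a class I gene, had 6.79 in proestrus, 7.58 in estrus, 7.66 in metestrus and 8.77 in diestrus, and estrus minus metestrus was -0.08. Rgs9, a brake on G protein signalling, had 7.79 in proestrus, 8.49 in estrus, 9.41 in metestrus and 9.04 in diestrus. Lipf, a lipase, and Mrap, a partner of the melanocortin receptor, were the others that rose (1.34 ± 0.12 and 1.15 ± 0.15), and Drd4, a dopamine receptor, was the other that fell. Drd4 was detected on no proestrus or estrus array, on all 3 metestrus arrays and on 1 of 3 diestrus arrays, so its diestrus mean also lies near background.

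At the edge of the rule stood genes whose weakest stage pair had an unadjusted p near 0.05. Just inside were Gpx1 and Defb14, with a largest stage-pair p of 0.0497 and 0.0498, and just outside were Artn and Aqp1, with 0.0501 and 0.0507. Their phase differences were 0.79 for Gpx1, 1.05 for Defb14, -0.69 for Artn and -0.68 for Aqp1.

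The array sets were compared in a further step chosen after the data were seen. Of 683 genes shared in replicates 2 and 3 alone, 673 (98.5%) had the same direction between phases on the 4 replicate 1 arrays, and 612 (89.6%) had it in all 4 stage pairs. Over all genes tested those shares were 75.7% and 41.1%, but their median absolute difference on replicates 2 and 3 was only 0.147. The 683 genes were chosen for clear differences, so the 2 sets of shares are not like for like. The array sets may also be repeated hybridisations, so a match between them does not measure the spread between animals. The median difference of the 683 genes was 0.57 on replicates 2 and 3, which chose them, and 0.60 on replicate 1. In limma, 0 genes had a phase difference that differed between the sets at an adjusted p under 0.05, and 396 did at an unadjusted p under 0.05. Without replicate 1, 818 genes were higher and 887 lower, with 339 and 344 shared.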

How the data were processed

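Per the file headers, the authors deposited, for every array and each of 25697 probes, an intensity as scanned together with its detection p-value. The intensities carry no background subtraction as far as the values show, with a lowest value of 52.3. The authors also deposited a value table of the same arrays on an intensity scale, with negative values, which was used as an alternative. Neither labels nor headers say how that table was scaled. The detection p-values are those of the deposited file.

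From these, log2 intensities were computed with neqc (limma 3.58.1, R 4.3.3): normexp background correction guided by detection p, quantile normalization over the 12 arrays and an offset of 16. The deposited intensities were thus put on the log2 scale here, not by the authors. Probes with a detection p under 0.01 on at least 3 arrays were kept, 14778 in all. Names came from the platform annotation supplied, where 23978 probes had 1 symbol and 1719 none, and symbols were updated through RefSeq of GRCm38.p6. The probe of highest mean stood for a gene, which left 10144 genes. Of the named genes, 37 had several kept probes, and none of these had probes of both signs. The number of arrays limits the precision, and many genes lie near background, where differences are compressed.

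One limma fit with a mean per stage used all 12 arrays, with 8 residual degrees of freedom, eBayes moderation and Benjamini-Hochberg adjustment over all genes tested. For a shared gene detected on no array of a phase, an "at least" fold set the mean of the other phase against a floor. The floor was the lowest level of a probe detected on each array, or the gene's own value where higher. Stage means were removed to check whether replicate numbers pair arrays. Arrays of different stages correlated by 0.618 to 0.809 within replicate 1, by 0.261 to 0.512 within replicate 2 and by 0.357 to 0.552 within replicate 3. All were above 0.1, so the numbers were taken to pair the arrays, although replicates 2 and 3 also correlated with each other, by 0.218 to 0.542. For the gene lists and families described, values with the replicate block stand beside those counts of passing genes they moved by over 1.5 times. All pairs of arrays differed beyond duplication, with correlations between 0.9497 and 0.9947.

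Genes were named by a rule: leaving out clone names, the 16 shared genes of each direction with the largest smallest stage-pair difference, the 6 largest changed but not shared in each direction, up to 4 genes of lowest p per process list and 2 per marker list, and Esr1, Pgr and Ovgp1. Of 139 genes so named, 116 changed. The comparison, the 33 gene lists and the rule were chosen with earlier results of these data known, so no list count is independent support. The alternatives were the blocks, each array set alone, other background corrections, normalizations, filters and probe rules, array weights, and leaving out each array or stage. Scripts were tested on simulated data.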

Additional observations from a re-analysis of the deposited data

Results flagged for a closer look

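Among the named genes, 12 values on single arrays stood far from the other 5 of their phase, out of 232 sets of 6 arrays examined (5.17%), where chance gives about 1 in 20. The metestrus replicate 1 array gave 8 of the 12. It held Cidea at 9.56 (10.22 to 10.46 on the other metestrus and diestrus arrays), Cldn4 at 8.78 (9.31 to 9.42), Crabp2 at 5.78 (6.62 to 6.68), H2-Ab1 at 10.76 (11.24 to 11.44), Lcn2 at 11.16 (11.71 to 11.91) and Ssr4 at 12.27 (12.79 to 13.01), all low. On the same array Errfi1, at 12.91 (12.23 to 12.44), and Ldha, at 12.18 (11.85 to 11.95), were high. Without this array, 466 genes were higher and 523 lower in proestrus and estrus.

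The other 4 lay on different arrays. Cidea was low on estrus replicate 1, at 10.46 (10.73 to 10.85 on the other proestrus and estrus arrays), Rln1 was high on proestrus replicate 3, at 5.24 (4.50 to 4.76), Mmp9 was low on diestrus replicate 1, at 7.55 (7.90 to 8.03), and Rfx2 was low on metestrus replicate 2, at 11.21 (11.37 to 11.46). No named gene had a phase difference that differed between the array sets in limma at an adjusted p under 0.05, where 396 of all genes had an unadjusted p under 0.05.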

How the results depend on the processing

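The base for each comparison here is 450 genes higher and 454 lower in proestrus and estrus, 230 and 223 of them shared and 451 not shared. The counts rose in the following settings. The replicate block gave 1094 higher and 1292 lower, with 441 and 498 shared, 1447 not shared and 68 shared genes that also passed within a phase. An array set block gave 1156 and 1383 (460 and 523 shared, 1556 not), array weights 1199 and 1399 (432 and 471, 1695 not), and replicates 2 and 3 alone 818 and 887 (339 and 344, 1022 not). They fell in others: quantile normalization within each set gave 26 and 7 (20 and 6 shared, 7 not), and the deposited values 63 and 20 (47 and 17, 19 not). With the replicate block the deposited values gave 1013 and 1200 (434 and 454, 1325 not). Replicate 1 alone, 2 arrays against 2, gave 21 and 4. Leaving out proestrus gave 168 and 59 (166 and 59 shared, 2 not), estrus 253 and 289 (8 not), metestrus 304 and 218 (59 not) and diestrus 232 and 191 (50 not). An adjusted p under 0.05 in every stage pair left 66 and 26 shared. Leaving out 1 array gave 319 to 466 higher, 308 to 523 lower, 176 to 223 and 158 to 229 shared, and 287 to 554 not shared. Without estrus, Nlrp14, Oosp1 and Sprr2d turned to -0.57, -0.12 and -0.027, but Sprr2d was then detected on no array and Oosp1 on 2 of 9, so these 2 signs lie at background. No other named gene that changed turned sign in the 32 alternatives, and the replicate block kept all 116. Leaving out 1 array lost 5 to 20 of the 116, replicate 1 alone lost 96, within-set normalization 89, the deposited values without a block 76, and leaving out proestrus 54, diestrus 44, estrus 36 and metestrus 23. All other alternatives, which changed background correction, normalization by cyclic loess, detection filter, probe rule or moderation, kept the counts within 1.5 times. Genes near background, detected in 1 phase, have a size that is only a bound. The causes were not tested.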

Other observations

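Some gene families, grouped by the stem of their symbols after the values were seen, held many members that passed between phases, against 8.91% of all genes tested. Of 10 kallikrein genes (Klk), 7 were higher in proestrus and estrus and none lower, 5 of them shared, with a median of 0.81, and with the replicate block 8 were higher and 1 lower. Kallikreins of the Klk1b group are near-identical, so 1 transcript may be read by several probes. Of 11 carbonic anhydrase genes (Car), which interconvert carbon dioxide and bicarbonate, Car9, Car12, Car13 and Car14 were higher and all 4 were shared (6 higher and 2 lower with the block). Of 30 cytochrome P450 genes (Cyp), 3 were higher, the sterol and steroid enzymes Cyp51, Cyp11a1 and Cyp17a1, and 9 were lower, Cyp2j11, Cyp2j13, Cyp2f2 and Cyp4b1 among them (5 higher and 11 lower with the block). Of 10 Sox transcription factor genes, 4 were higher and 2 lower, and of 15 Ccl chemokine genes 4 were higher (Ccl7, Ccl11, Ccl12 and Ccl28) with 1 shared. Under the block 7 Ccl genes were higher and 1 lower.

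Other families had no member that passed in limma. They include 43 Mrpl and 27 Mrps genes of the mitochondrial ribosome, with medians of 0.25 and 0.26, where 12 and 7 had an unadjusted p under 0.05 and 11 and 4 passed with the replicate block, all higher in proestrus and estrus. They also include 32 Rpl genes of the cytosolic ribosome, with a median of 0.07, where 3 had an unadjusted p under 0.05 and 2 passed with the block. In 3 shared genes outside the naming rule, the difference was among the largest at estrus. Mgarp, a mitochondrial protein gene, had means of 8.23 in proestrus, 11.13 in estrus, 7.53 in metestrus and 7.38 in diestrus. Slc38a5, an amino acid transporter, had 8.04, 9.13, 6.74 and 7.20 in the same order, and Nr5a2, a nuclear receptor of the ovary and other tissues, 6.01, 7.45, 4.87 and 5.48.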
